A study of Homo sapiens with 8 samples.

Results

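Interferon-stimulated genes are genes that cells switch on when interferons bind their receptors. A list of 49 of them, chosen by gene symbol, was followed on 8 Affymetrix PrimeView arrays of PANC1, a line of human pancreatic tumour cells. The list was chosen with earlier results of these data known, so its counts beside the shares of all genes are descriptions. Of the 49 genes, 47 had at least 1 probe set annotated to that gene alone (119 probe sets), out of 18132 genes measured in this way. STAT2 was not analysed here. USP18 was read only by a probe set shared with other genes and is given in the closing section.

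The arrays fell into 4 groups of 2. Control cells were labelled wild type and were not irradiated. The sgBAP1 cells carried a CRISPR/Cas9 deletion of BAP1, a nuclear deubiquitinase of histone H2A, and were not irradiated. The IR cells were wild type by label and received 10 Gy of ionising radiation, and the sgBAP1 + IR cells received both. RNA was collected 3 days after irradiation. Per the study, PANC1 cells had already lost a copy of BAP1, the guide targeted an early exon, and transfected cells were selected with puromycin. The study describes cells with a non-targeting guide as controls, and the labels do not say whether the cells labelled wild type carried one. BAP1 transcripts were not analysed here, so the genotype labels were not checked against the targeted gene. The labels do not tell whether both arrays of a group stem from different cultures, so the p-values measure only the spread between these samples, which may be technical. The 2 arrays of a group correlated at 0.998 or more, and arrays of different groups at 0.988 to 0.995.

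As background, type I and type III interferons act through JAK kinases on a transcription factor complex that contains STAT2 and IRF9 and binds the interferon-stimulated response element (ISRE) in promoters. Interferon gamma acts mainly through the gamma-activated site, and IRF family factors can bind the ISRE without interferon. The proteins made include antiviral GTPases, RNA-binding proteins and nucleases, the ubiquitin-like modifier ISG15, membrane proteins that hinder virus entry or release, and the factors IRF1, IRF7 and IRF9 themselves. Induction of such genes is a known response of irradiated tumour cells.

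The ISRE is the sequence feature most of the listed genes shared, and it did not enter the choice of the list. RefSeq promoter windows on GRCh38.p14, covering 250 bases before to 50 bases after a transcript start, were at hand for 41 of the 49 genes. They were searched on both strands. The ISRE core, spelled GAAA, any 2 bases and GAAA again, was present in 29 of the 41 genes (70.7%), against 4.38% of all 27305 genes with a window. The gamma-activated site, TTCNNNGAA, was present in 12 of the 41 (29.3%), against 9.38% of all genes, and in 5 genes it overlapped an ISRE core. A kappa-B core, GGG followed by any 5 bases and CC, was present in 24 of the 41 (58.5%), against 61.7% of all genes. A match is a description of the letters in the window and not evidence that a factor binds there.

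The following stretches are printed because they carry the ISRE core of genes that the results turn on, with the core in capitals and 10 bases on each side, on the strand given. The first 6 belong to genes that rose with 10 Gy in both genotypes, the next 3 to genes that rose with the guide (IFIT1 in irradiated cells), and the next is shared by PARP9 and DTX3L, neighbours on opposite strands. These sets overlap, since ISG15 was also called with the guide without IR, and ISG20 and IFIT3 with 10 Gy in both genotypes. The last 3 belong to genes that were called in no comparison.
ISG15 (chr1:1013380-1013409, + strand): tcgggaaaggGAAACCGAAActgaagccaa
IFI6 (chr1:27672288-27672317, - strand): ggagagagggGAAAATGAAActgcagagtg
IFITM1 (chr11:313990-314019, + strand): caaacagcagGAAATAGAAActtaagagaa
LGALS3BP (chr17:78979962-78979991, - strand): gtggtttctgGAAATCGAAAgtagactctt
DDX60 (chr4:168318786-168318815, - strand): gaggagaaagGAAACCGAAActcccgccgg
HERC5 (chr4:88457035-88457064, - strand): agctccagtgGAAAACGAAAcataatgttt
ISG20 (chr15:88638937-88638966, + strand): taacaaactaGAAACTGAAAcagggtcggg
IFIT3 (chr10:89332468-89332497, - strand): aaggggaaagGAAAGTGAAActgatggaac
IFIT1 (chr10:89392497-89392526, - strand): accgaaagggGAAAGTGAAActaaagctag
PARP9 and DTX3L (chr3:122564322-122564351, + strand): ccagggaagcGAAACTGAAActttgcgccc
IFIT5 (chr10:89414513-89414542, - strand): gtaagcttcaGAAACCGAAActtaatagaa
IFITM3 (chr11:320876-320905, - strand): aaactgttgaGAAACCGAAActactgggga
RTP4 (chr3:187368333-187368362, + strand): tccatacacaGAAACAGAAActgaaccgaa

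The IRF1 and IRF9 windows held no ISRE core and did hold a gamma-activated site, shown in capitals.
IRF1 (chr5:132490879-132490907, - strand): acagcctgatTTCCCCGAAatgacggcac
IRF9 (chr14:24161192-24161220, + strand): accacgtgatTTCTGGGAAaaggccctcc

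Of the 41 genes, 27 had an ISRE core starting within the 150 bases before a transcript start, and 16 had more than 1 core in a window. The core in the ISG15 window lay 107 bases before the start, that of ISG20 69 bases and that of LGALS3BP 58 bases. The gamma-activated site lay 124 bases before the start in IRF1 and 63 bases in IRF9.

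**Figure D1:**
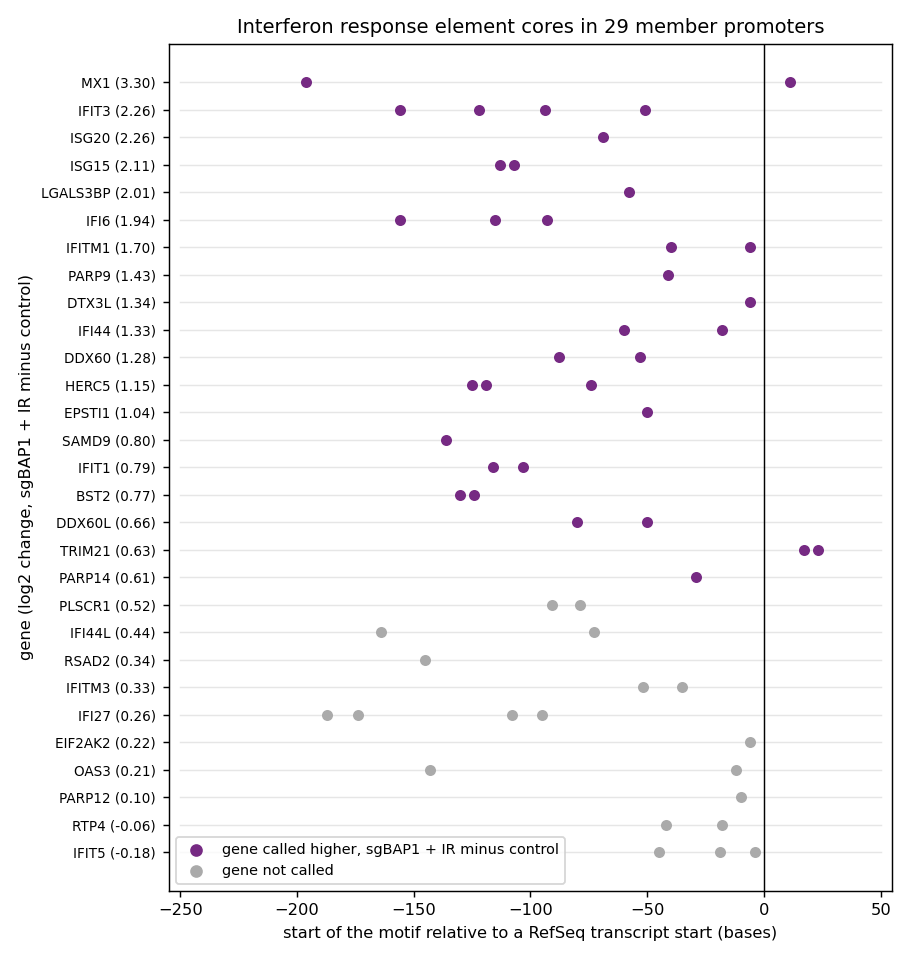
Position of each ISRE core (points) relative to a RefSeq transcript start at 0, in bases, for the 29 genes with a core, ordered by their log2 change in sgBAP1 + IR minus control. Purple marks genes called higher and grey those not called. The bottom rows, IFIT5 and RTP4, hold several cores and changed by -0.18 and -0.06.

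Values below are log2 signals from the deposited table, in the order replicate 1, replicate 2. Changes are differences of group means on the log2 scale, ± the limma standard error (n = 2 arrays a group). A gene was called at an adjusted p under 0.05, over all 49293 probe sets, and a fold change over 1.5. Where a gene had several probe sets, the brightest on average stands for it. Signals of different genes are not comparable, since the array measures each with its own probes.

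A dose of 10 Gy raised a large part of the list. In IR minus control, 22 of 47 genes were called higher and 0 lower, where 2.2% of all genes were called higher and 1.38% lower. In sgBAP1 + IR minus sgBAP1, 24 were called higher and 0 lower, where the shares of all genes were 1.9% and 1.29%. The median change was 0.56 and 0.61, against -0.00 and 0.03 over all genes. With the guide, 7 genes were called higher and 0 lower in sgBAP1 minus control (all genes: 2.32% higher, 2.61% lower), at a median of 0.08, or 0.02 without the first sgBAP1 array. In sgBAP1 + IR minus IR the counts were again 7 and 0 (all genes: 0.993% higher, 1.13% lower), at a median of 0.15, and 4 genes were called higher without the first IR or the second sgBAP1 + IR array. Guide and irradiation together gave 29 genes higher and 0 lower against control (all genes: 3.62% higher, 4.39% lower), with a median of 0.79. At an unadjusted limma p under 0.05, the genes on the lower side were 5, 1 and 1 against control for sgBAP1, IR and both, and 0 in the other 2 comparisons. The share of all genes at that limit was not counted. The methods' t-test, at its threshold and after adjustment, called 0 lower in each. In irradiated against unirradiated cells, both arrays lay above both reference arrays for 39 genes in control cells and for 43 in sgBAP1 cells, where 28.3% and 34.5% of all genes did. For the guide this held for 19 genes without IR and 33 with it (30.1% and 34.4% of all genes), and for both treatments against control for 40 (37.5% of all genes). Both arrays lay below both reference arrays for 10 genes with the guide without IR and 5 with it. With IR they did for 2 genes in control cells and 1 in sgBAP1 cells, and with both treatments for 2. The shares of all genes below were not counted.

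**Figure D2:**
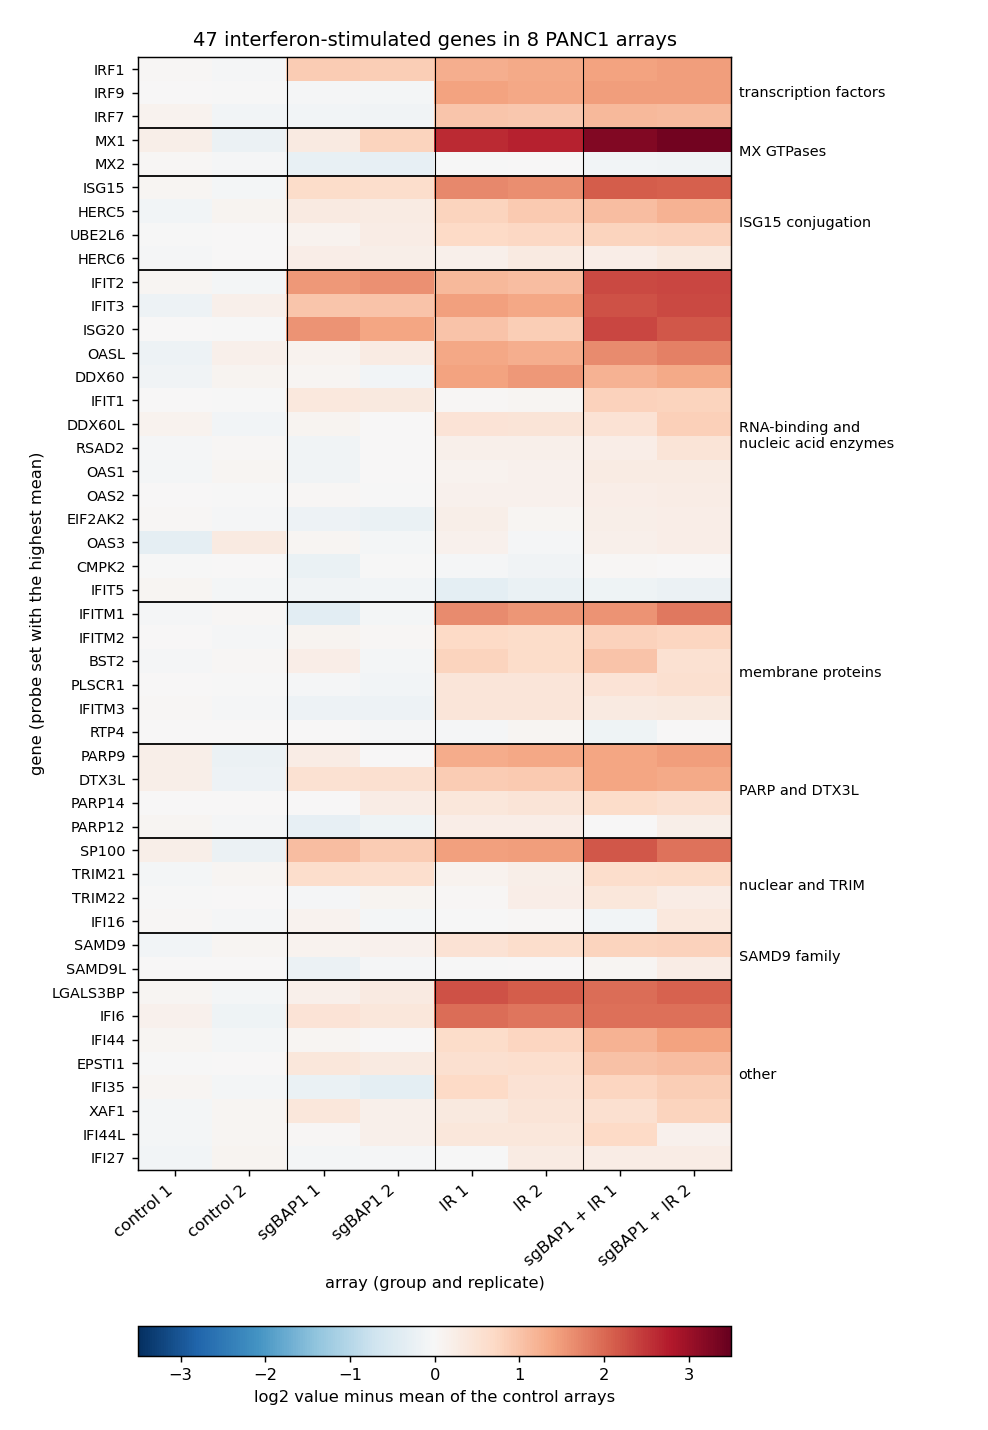
Log2 value of each of the 47 genes (rows, by role) in each of the 8 arrays (columns), minus the mean of the control arrays. MX1 shows the strongest colour, and 18 genes that were never called form pale rows.

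Among the transcription factors, all 3 measured genes rose with 10 Gy in control cells and IRF1 alone was called with the guide. IRF9, the DNA-binding part of the STAT complex, was at 8.4 and 8.38 in control, 8.34 and 8.33 in sgBAP1, 9.79 and 9.74 in IR, and 9.84 and 9.84 in sgBAP1 + IR arrays. All irradiated arrays lay above all unirradiated ones, and the IR change was 1.38 ± 0.05 in control cells (adjusted p = 1.56e-05) and 1.51 ± 0.05 in sgBAP1 cells (adjusted p = 2.06e-05). The guide changed IRF9 by -0.06 ± 0.05 without IR and 0.07 ± 0.05 with it. IRF7, the main inducer of interferon alpha genes, rose by 0.95 ± 0.07 and 1.23 ± 0.07 with IR in control and sgBAP1 cells.

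IRF1, which binds ISRE-like sites and is itself induced by interferon, was at 6.57 and 6.47 in control, 7.4 and 7.39 in sgBAP1, 7.8 and 7.84 in IR, and 7.94 and 7.99 in sgBAP1 + IR arrays. It rose in each step against control, by 0.88 ± 0.06 with the guide (adjusted p = 0.000135), 1.3 ± 0.06 with IR (adjusted p = 3.28e-05) and 1.45 ± 0.06 with both (adjusted p = 1.18e-05). The guide call was found on the brightest probe set alone. The other IRF1 probe sets changed by 0.31, 0.50 and -0.01 with the guide, with none called. On the brightest probe set, the IR change in sgBAP1 cells was 0.57 ± 0.06, below the 1.5-fold limit, and the guide change in irradiated cells was 0.14 ± 0.06. Other IRF1 probe sets were called with IR in sgBAP1 cells, at 0.75 (adjusted p = 0.00121) and 0.59 (adjusted p = 0.00565). The difference between the IR changes was -0.73 ± 0.08 (adjusted p = 0.0239), and IRF1 was the 1 gene of the list called in this interaction, where 0.309% of all genes were called lower and 0.154% higher. That call rested on 1 of 4 IRF1 probe sets and was lost whenever any 1 array was left out, with adjusted p between 0.0631 and 0.143. The other IRF1 probe sets gave differences of -0.07, -0.20 and 0.01.

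The MX GTPases, which trap viral particles in the cytoplasm or at the nuclear pore, differed in their calls, a difference between genes that was not tested. MX1 was at 4.37 and 3.96 in control, 4.47 and 4.93 in sgBAP1, 6.76 and 6.86 in IR, and 7.4 and 7.54 in sgBAP1 + IR arrays. Its change with both treatments, 3.30 ± 0.18 or 9.88-fold (adjusted p = 3.51e-05), was the largest of the list. The IR change was 2.65 ± 0.18 in control cells and 2.77 ± 0.18 in sgBAP1 cells. The guide change was 0.54 ± 0.18 without IR (adjusted p = 0.0651) and 0.66 ± 0.18 with IR (adjusted p = 0.0465), and the latter call was lost without any 1 of the 4 irradiated arrays (adjusted p 0.111 to 0.181). MX1 lay below 5, the limit used here for dim probe sets, in all unirradiated arrays. MX2, its neighbour on chromosome 21, stayed between 9.14 and 9.47 in all arrays, was called in no comparison, and changed by -0.01 ± 0.05 with IR. With the guide MX2 fell by 0.27 ± 0.05 on the log2 scale (adjusted p = 0.00965), under the fold limit.

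ISG15 and its conjugation enzymes rose with IR. ISG15 was at 8.81 and 8.65 in control, 9.36 and 9.34 in sgBAP1, 10.4 and 10.37 in IR, and 10.85 and 10.83 in sgBAP1 + IR arrays, so that no group overlapped another. It rose by 0.62 ± 0.06 with the guide (adjusted p = 0.000627), 1.65 ± 0.06 with IR (adjusted p = 1.86e-05) and 2.11 ± 0.06 with both (adjusted p = 4.91e-06). Without the second control array the guide change was 0.55 and under the fold limit. UBE2L6, which loads ISG15, rose by 0.70 ± 0.06 with IR and 0.61 ± 0.06 with IR in sgBAP1 cells, where the call was lost without the first sgBAP1 array. HERC5, the ligase that attaches ISG15, rose by 0.84 ± 0.09 with IR in either genotype and by 1.15 ± 0.09 with both, while its neighbour HERC6 lay between 3.54 and 3.9 and was never called.

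Among the RNA-binding proteins and nucleic acid enzymes, 5 of 14 were called higher with IR, 3 with the guide and 7 with both. IFIT2, which binds AU-rich RNA, was at 7.64 and 7.51 in control, 9.08 and 9.18 in sgBAP1, 8.71 and 8.65 in IR, and 9.88 and 9.91 in sgBAP1 + IR arrays. Here the sgBAP1 arrays lay above the IR arrays. The guide change was 1.55 ± 0.07 without IR (adjusted p = 5.45e-05) and 1.22 ± 0.07 with it (adjusted p = 0.00041), and the IR change was 1.11 ± 0.07 in control and 0.77 ± 0.07 in sgBAP1 cells.

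ISG20, an exonuclease that degrades viral RNA, followed the same order. It was at 5.7 and 5.68 in control, 7.26 and 7.08 in sgBAP1, 6.69 and 6.54 in IR, and 8.03 and 7.87 in sgBAP1 + IR arrays. The guide change was 1.48 ± 0.09 without IR (adjusted p = 0.000108) and 1.34 ± 0.09 with it (adjusted p = 0.00055), and the IR change was 0.92 ± 0.09 in control cells.

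IFIT3, a partner that stabilises IFIT1, was at 6.24 and 6.58 in control, 7.37 and 7.4 in sgBAP1, 7.84 and 7.75 in IR, and 8.63 and 8.71 in sgBAP1 + IR arrays. The 4 groups did not overlap and the sgBAP1 + IR arrays were highest. The only IFIT3 probe set is marked by the manufacturer as open to cross-hybridisation. IFIT3 rose by 0.98 ± 0.11 with the guide, 1.38 ± 0.11 with IR and 2.26 ± 0.11 with both (adjusted p = 2.12e-05).

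IFIT1, which binds capped RNA that lacks host methylation, was called with the guide in irradiated cells and not with IR. It was at 8.82 and 8.8 in control, 9.19 and 9.16 in sgBAP1, 8.86 and 8.89 in IR, and 9.62 and 9.59 in sgBAP1 + IR arrays. The IR change was 0.06 ± 0.05 in control cells (adjusted p = 0.45) and 0.43 ± 0.05 in sgBAP1 cells (adjusted p = 0.00184, under the fold limit). The guide change in irradiated cells was 0.73 ± 0.05 (adjusted p = 0.00058), and without IR it was 0.37 ± 0.05 (adjusted p = 0.00195, under the fold limit). The difference between the IR changes, 0.36 ± 0.07, did not pass the test (adjusted p = 0.0758, interval 0.20 to 0.53). IFIT5, next to IFIT1 on chromosome 10, lay between 7.18 and 7.59 and was never called, and its IR change of -0.28 ± 0.07 was the lowest of the list in that comparison. The other IFIT5 probe set changed by 0.04 with IR in control cells (adjusted p = 0.78).

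OASL, an OAS family member without synthetase activity, and DDX60, a helicase, rose with IR in both genotypes. OASL was at 5.94 and 6.28 in control, 6.22 and 6.39 in sgBAP1, 7.46 and 7.38 in IR, and 7.76 and 7.87 in sgBAP1 + IR arrays, a change of 1.31 ± 0.12 with IR and 1.71 ± 0.12 with both. DDX60 was at 4.76 and 4.97 in control, 4.95 and 4.77 in sgBAP1, 6.29 and 6.38 in IR, and 6.1 and 6.19 in sgBAP1 + IR arrays. Its control and sgBAP1 arrays overlapped, and its change was 1.47 ± 0.09 with IR and 1.28 ± 0.09 with IR in sgBAP1 cells. DDX60L, the adjacent gene, changed by 0.45 ± 0.12 and 0.62 ± 0.12, the latter called. That call was lost without either sgBAP1 array or the second sgBAP1 + IR array (0.45 to 0.66), and its call with both treatments (0.66) without the second control or second sgBAP1 + IR array (0.55 and 0.5).

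OAS1, OAS2 and OAS3, which make the oligoadenylates that activate RNase L, were not called on their brightest probe sets, with IR changes of 0.14 ± 0.07, 0.14 ± 0.05 and 0.06 ± 0.18. For OAS1 and OAS2 this depended on the probe set. A dimmer OAS1 probe set rose by 0.95 with IR (adjusted p = 0.000832) and by 1.42 with both, and a dimmer OAS2 probe set rose by 0.80 (adjusted p = 0.00521) and 0.97. CMPK2, a mitochondrial nucleotide kinase, likewise changed by -0.08 ± 0.08 on its brightest probe set and by 0.94 on another (adjusted p = 0.0193). EIF2AK2, the RNA-activated kinase PKR, lay between 8.86 and 9.34, and RSAD2, the antiviral enzyme viperin, between 4.16 and 4.74, and neither was called.

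**Figure D3:**
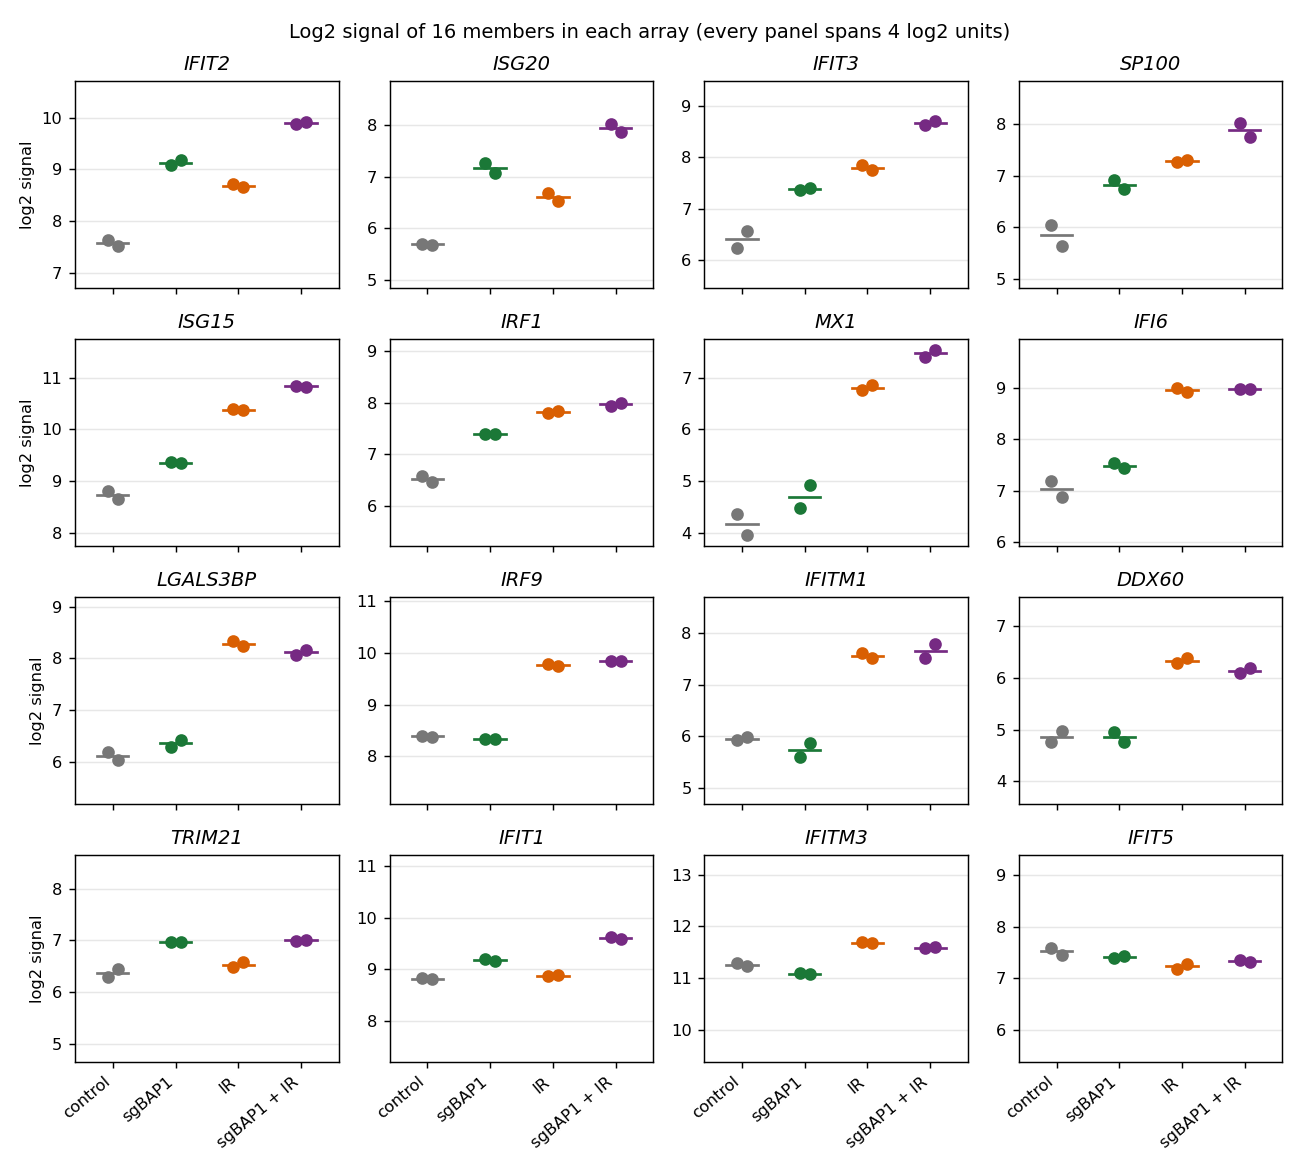
Log2 signal of 16 genes in each array (points) with the group mean (bars), each panel spanning 4 log2 units. IFIT2 and ISG20 were higher in sgBAP1 than in IR arrays, and for IRF9, IFITM1 and DDX60 all irradiated arrays lay above all unirradiated ones.

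Of 6 membrane proteins, 3 were called higher with IR in either genotype, while the guide changes of the 6 lay between -0.22 and 0.09 without IR and between -0.10 and 0.11 with it. IFITM1, which hinders virus fusion, was at 5.93 and 5.99 in control, 5.6 and 5.88 in sgBAP1, 7.62 and 7.51 in IR, and 7.52 and 7.8 in sgBAP1 + IR arrays. The IR change was 1.60 ± 0.12 in control cells (adjusted p = 0.00028) and 1.92 ± 0.12 in sgBAP1 cells (adjusted p = 0.000174). IFITM2 rose by 0.68 ± 0.05 with IR, and IFITM3, from the same cluster on chromosome 11, by 0.43 ± 0.05, which passed the p limit (adjusted p = 0.00184) and not the fold limit. With the guide IFITM3 changed by -0.18 ± 0.05 (adjusted p = 0.0355), also under the fold limit. The 3 IFITM genes are near-identical in parts and probe sets of IFITM2 and IFITM3 are marked by the manufacturer as open to cross-hybridisation, so their split is uncertain. BST2, which tethers budding virions, was below 5 in every group and its IR call (0.71 ± 0.16) was lost when any 1 control or IR array was left out (adjusted p 0.0755 to 0.125). Of the other BST2 probe sets, 2 rose by 0.84 and 0.87 with IR, and the dimmest changed by 0.03 (adjusted p = 0.809). PLSCR1, a scramblase, changed by 0.42 ± 0.05 with IR on its brightest probe set, under the fold limit, and by 0.70 on another (adjusted p = 0.00392). RTP4, a receptor-transporting protein, lay between 4.06 and 4.27.

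PARP9 and DTX3L form a complex that joins ADP-ribosylation to ubiquitination at damaged DNA, and both rose with IR. PARP9 was at 5.63 and 5.21 in control, 5.68 and 5.43 in sgBAP1, 6.73 and 6.77 in IR, and 6.81 and 6.89 in sgBAP1 + IR arrays. The IR change was 1.33 ± 0.14 in control cells (adjusted p = 0.00112) and 1.29 ± 0.14 in sgBAP1 cells, and neither of its other 2 probe sets was called. DTX3L rose by 0.89 ± 0.12 with IR and 1.34 ± 0.12 with both. Of its other probe sets, 1 rose by 1.03 and 1.38 and was also called with the guide (0.66, adjusted p = 0.00583), and the dimmest gave -0.06 and 0.04. PARP14 was called with both treatments only (0.61 ± 0.09, lost without the first sgBAP1 + IR array and on none of its other probe sets called), and PARP12 lay between 6.99 and 7.51 and was never called.

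Of the nuclear and TRIM proteins, SP100 and TRIM21 rose with the guide. SP100, a scaffold of PML nuclear bodies, was at 6.05 and 5.64 in control, 6.92 and 6.73 in sgBAP1, 7.27 and 7.31 in IR, and 8.02 and 7.75 in sgBAP1 + IR arrays. It rose by 0.98 ± 0.15 with the guide (adjusted p = 0.00292), 1.44 ± 0.15 with IR (adjusted p = 0.00101) and 2.04 ± 0.15 with both, and its guide call in irradiated cells (0.60 ± 0.15) was lost without any 1 of the 4 irradiated arrays. Other SP100 probe sets called with the guide without IR changed by 0.74, 1.0 and 1.07, and the rest by 0.04 to 0.38. With IR in control cells, those not called changed by 0.16, 0.29 and 0.37. In irradiated cells, 1 other probe set was called with the guide (0.59). TRIM21, a cytosolic antibody receptor and ubiquitin ligase, was at 6.3 and 6.44 in control, 6.98 and 6.97 in sgBAP1, 6.49 and 6.58 in IR, and 6.99 and 7.01 in sgBAP1 + IR arrays. Its guide change was 0.61 ± 0.06 (adjusted p = 0.000727; 0.54 and under the fold limit without the first control array), while its IR change was 0.17 ± 0.06 in control and 0.02 ± 0.06 in sgBAP1 cells. TRIM22 lay between 5.78 and 6.21 and the DNA sensor IFI16 between 3.42 and 3.89, and neither was called on its brightest probe set. A dimmer TRIM22 probe set was called with IR in sgBAP1 cells (0.59, adjusted p = 0.00533).

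Of the remaining genes, LGALS3BP and IFI6 had the largest IR changes in control cells after MX1. LGALS3BP, a secreted galectin-binding glycoprotein, was at 6.18 and 6.04 in control, 6.28 and 6.43 in sgBAP1, 8.34 and 8.24 in IR, and 8.07 and 8.17 in sgBAP1 + IR arrays. Its IR change was 2.19 ± 0.08 or 4.55-fold in control cells (adjusted p = 1.59e-05) and 1.77 ± 0.08 in sgBAP1 cells, and the guide change in irradiated cells was -0.17 ± 0.08. IFI6, an inhibitor of cell death, was at 7.19 and 6.89 in control, 7.53 and 7.44 in sgBAP1, 8.99 and 8.92 in IR, and 8.98 and 8.98 in sgBAP1 + IR arrays. Its sgBAP1 + IR arrays lay within the range of the IR arrays, and its IR change was 1.91 ± 0.10 in control and 1.49 ± 0.10 in sgBAP1 cells.

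IFI44, which has reported antiviral activity, was at 4.35 and 4.22 in control, 4.36 and 4.3 in sgBAP1, 4.94 and 5.05 in IR, and 5.51 and 5.71 in sgBAP1 + IR arrays. The guide change was 0.05 ± 0.09 without IR and 0.62 ± 0.09 with it (adjusted p = 0.00526), the latter lost without the first IR or the second sgBAP1 + IR array and found on 1 of its 6 probe sets. The difference between the IR changes was 0.57 ± 0.12 and did not pass the test (adjusted p = 0.0887). IFI35, a partner of NMI, rose by 0.60 ± 0.09 and 1.09 ± 0.09 with IR in control and sgBAP1 cells, the former lost without the second control or the first IR array. EPSTI1 rose by 1.04 ± 0.06 with both, XAF1, a promoter of apoptosis, by 0.66 ± 0.11, and SAMD9, a growth-restricting factor, by 0.80 ± 0.07, the XAF1 call lost without the first control or second sgBAP1 + IR array (0.58 and 0.55). Another XAF1 probe set rose by 0.81 with IR (adjusted p = 0.000902). IFI27 lay between 6.46 and 6.83, IFI44L between 3.46 and 4.25 and SAMD9L between 4.66 and 5.14, and none was called. In all, 18 genes were called in no comparison on their brightest probe sets, and 6 of them were below 5 in every group. Of the 18, CMPK2, OAS1, OAS2, PLSCR1 and TRIM22 had another probe set that was called in some comparison.

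The comparison of irradiation between genotypes uses separate arrays on each side, IR minus control and sgBAP1 + IR minus sgBAP1. In both, 21 genes were called higher. Across the 47 genes the changes had a Pearson correlation of 0.93, against 0.77 over all 18132 genes, given as a description since genes are not independent. In the interaction, limma called 0 genes higher and 1 lower, 10 of 47 had an unadjusted p under 0.05 (6 higher and 4 lower), and for 36 genes the 95% interval of the difference lay inside the 1.5-fold limit in both directions. The shares of all genes at the unadjusted limit and for the interval were not counted, so these counts describe the list alone. EPSTI1, SAMD9 and DDX60L were called in sgBAP1 cells and not in control cells, with differences of 0.12 ± 0.08, 0.10 ± 0.10 and 0.16 ± 0.17 that did not pass the test.

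**Figure D4:**
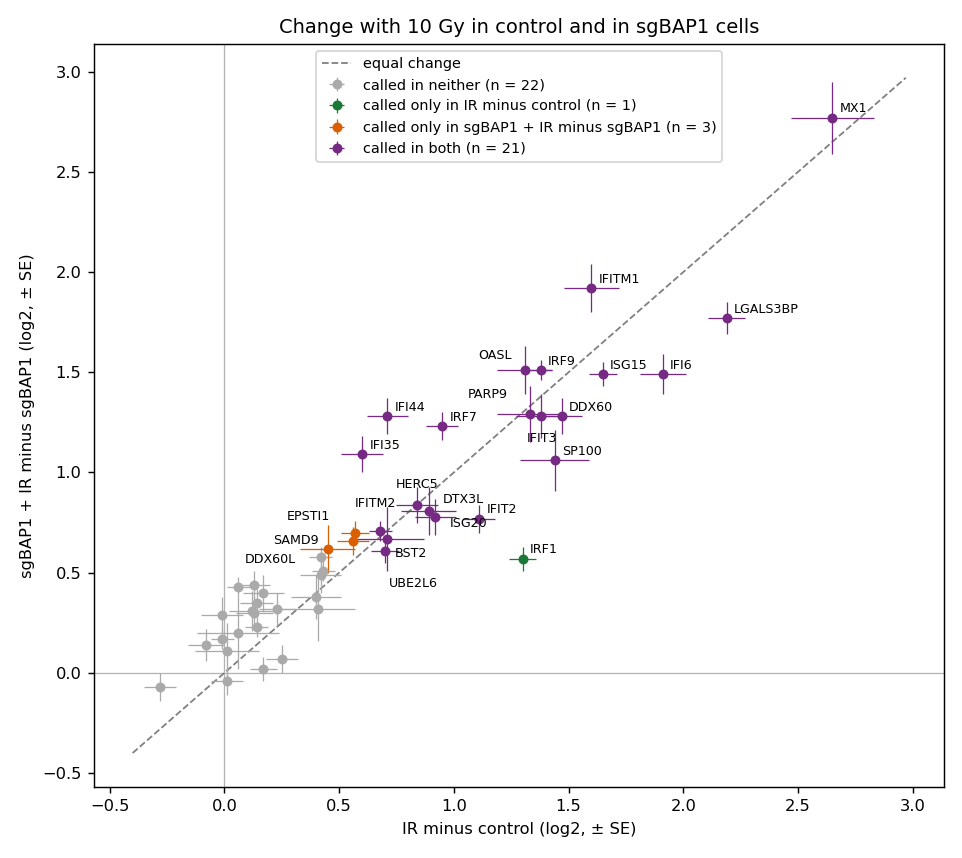
Log2 change with 10 Gy in control cells (x axis) against sgBAP1 cells (y axis) for 47 genes, ± limma SE, with the line of equal change. Purple points (21) were called in both genotypes, and IRF1 is the 1 gene whose brightest probe set was called in control cells alone.

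The guide was likewise compared on separate arrays, without and with irradiation. IFIT2, IFIT3, ISG20 and SP100 were called in both. IRF1, ISG15 and TRIM21 were called without IR alone, at 0.14 ± 0.06, 0.45 ± 0.06 and 0.46 ± 0.06 with IR. IFIT1, MX1 and IFI44 were called with IR alone, at 0.37 ± 0.05, 0.54 ± 0.18 and 0.05 ± 0.09 without IR. Of these 6 genes, IRF1 had an interaction past the threshold. The correlation of both guide changes was 0.81 across the 47 genes and 0.74 over all genes.

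**Figure D5:**
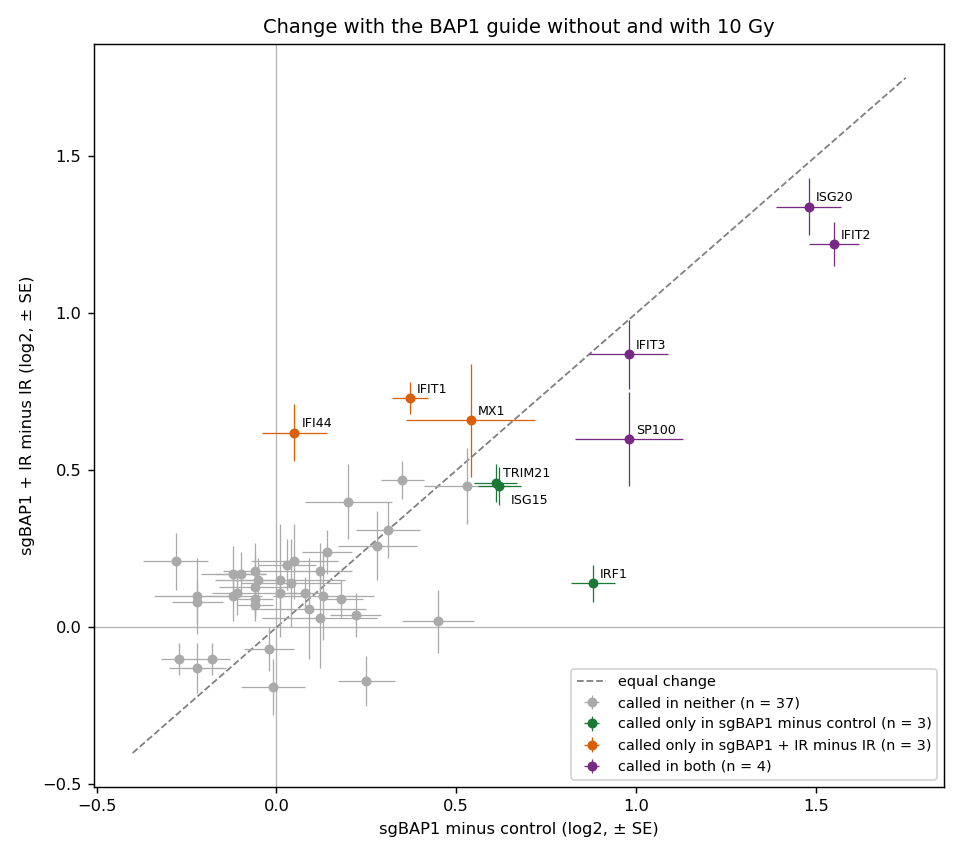
Log2 change with the BAP1 guide without IR (x axis) against with IR (y axis) for 47 genes, ± limma SE, with the line of equal change. ISG20 and IFIT2 lie at the top right, above 1 on both axes, and 37 genes (grey) were called in neither.

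Promoter content was set beside the calls for the 40 measured genes with a window. An ISRE core was present in 13 of 18 genes called with IR and in 16 of 22 not called, and in 4 of 6 called with the guide and 25 of 34 not called. The 5 genes called with IR that had no core in the window were IFI35, IRF1, IRF9, SP100 and UBE2L6. A gamma-activated site was present in 7 of the 18 genes called with IR and 5 of the 22 not called.

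Genes that act before and after interferon were counted from lists of their own. Of 15 interferon and interferon receptor genes, 12 were measured and limma called 0 in any comparison. Of all genes, 2.32% were called higher with the guide and 2.2% with IR, so a count of 0 among 12 is near those shares. At an unadjusted p under 0.05, there were 2 higher and 0 lower with the guide, and 1 higher and 1 lower with IR, with the share of all genes not counted. IFNB1 stayed between 3.51 and 3.84, and IFNL1 between 4.29 and 4.77, both below 5 throughout. The receptor chain IFNGR1 changed by 0.54 ± 0.06 with IR (adjusted p = 0.00117), under the fold limit.

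Among 14 genes of nucleic acid sensing upstream of interferon (sensors, adaptors, kinases and nucleases), the RNA helicases IFIH1 and RIGI were called higher with the guide without IR. The share of all genes called higher in that comparison was 2.32%. IFIH1 was at 5.24 and 5.12 in control, 5.84 and 5.97 in sgBAP1, 7.35 and 7.65 in IR, and 7.77 and 7.83 in sgBAP1 + IR arrays, a change of 0.73 ± 0.11 with the guide and 2.32 ± 0.11 with IR. In irradiated cells the IFIH1 guide change was 0.30 ± 0.11 and was not called (adjusted p = 0.097). RIGI rose by 0.83 ± 0.05 with the guide (adjusted p = 0.000122) and 0.67 ± 0.05 with the guide in irradiated cells, and its IR change of 0.49 ± 0.05 was under the fold limit. STING1, the adaptor of the cytosolic DNA sensor, was called with both treatments alone, at 0.61 ± 0.07, and stayed below 5.

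Of 16 genes of JAK-STAT signalling and its feedback, 15 were measured. The feedback inhibitor SOCS1 rose with the guide by 0.79 ± 0.09 without IR and by 0.33 ± 0.09 in irradiated cells, the latter under the fold limit. SOCS3 fell by 1.0 ± 0.06 on the log2 scale with IR (adjusted p = 0.000148). TRIM25, a ligase that activates RIGI, was called with both treatments (0.59 ± 0.05). Of 30 further interferon-inducible genes, 29 were measured and 2 were called higher with the guide, 4 with IR and 7 with both. The shares of all genes called higher were 2.32%, 2.2% and 3.62%. The median change of these 29 genes with the guide was 0.04. GBP3, a guanylate-binding protein, rose by 0.92 ± 0.07 with the guide and 0.84 ± 0.07 with IR, and PSMB9, an immunoproteasome subunit, by 1.19 ± 0.10 with IR.

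All 6 epithelial and ductal markers were measured. KRT7, KRT8 and KRT19 were called higher with IR in control cells. CDH1, between 4.57 and 7.2, was called lower with the guide and with IR in control cells. In sgBAP1 cells KRT7 and KRT19 were again called higher with IR, while KRT8 changed by 0.36 and CDH1 by 0.32 and neither was called. Of 11 leukocyte markers 10 were measured, with group medians of 4.43 to 4.6 and PTPRC, the pan-leukocyte antigen, between 3.31 and 3.6. Their summed linear signal was 512 to 533 in control, 774 to 810 in sgBAP1, 412 to 436 in IR and 583 to 590 in sgBAP1 + IR arrays. CD68, which many cell types express, was the brightest of them in every group, at 7.5 to 9.19, and weighs most in that sum. It was the 1 leukocyte marker called, at 0.93 ± 0.08 with the guide and -0.63 ± 0.08 with IR. The part of these markers in the results was not tested. The array reads RNA from whole cultures, so more RNA per cell and more cells expressing a gene cannot be told apart.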

How the data were processed

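The table deposited by the authors holds log2 signals from RMA, which corrects background, quantile-normalises arrays and summarises probes into probe sets; quantile normalisation can compress changes of dim probe sets. Of 49395 probe sets, 102 controls were left out and 49293 were tested without a filter. Genes were named from the platform annotation with current symbols, and a gene was read from its probe set with the highest mean. For 18 listed genes that probe set has a suffix (s_at or x_at) for probes that can match more than 1 transcript. Among them are IFIT3, OASL, ISG15, LGALS3BP and SP100. Group means of the 4 groups were estimated over the 8 arrays in limma 3.58.1 under R 4.3.3 by lmFit and eBayes (4 residual and 3.22 prior degrees of freedom), with Benjamini-Hochberg adjustment over all probe sets in each of 6 comparisons. The script was tested on simulated data. As an alternative, the criteria of the methods were run, a t-test at an unadjusted p under 0.01 and a fold over 1.5. The median residual SD was 0.0787 log2, and the number of arrays limits precision. The members, roles and gene lists were chosen with earlier results of these data known. Per-array values are given for the 12 largest called changes in IR minus control and in sgBAP1 + IR minus control, up to 8 in each other comparison, and all interaction calls. Values for USP18, IFIH1 and other genes outside this rule were added after they were seen. DDX58 and C19orf66 in the lists were matched to RIGI and SHFL. Promoter sequences were credited to RefSeq on GRCh38.p14; 8 listed genes had none at hand, namely IFIT2, IFITM2, IRF7, MX2, OAS2, OASL, TRIM22 and USP18. Alternatives covered the call rule, scaling, dim probe sets, the probe set of a gene, the prior, the arrays in the fit, the methods' t-test and leaving out each array.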

Additional observations from a re-analysis of the deposited data

Results flagged for a closer look

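On its brightest probe set, the IRF1 change with 10 Gy differed between the 2 genotypes. The log2 change in sgBAP1 cells minus that in control cells was -0.73 (SE 0.08, 95% interval -0.92 to -0.54, limma adjusted p = 0.0239). That probe set was called higher with IR in control cells (1.3), and its change in sgBAP1 cells (0.57, adjusted p = 0.00103) was under the fold limit. Other IRF1 probe sets were called with IR in both genotypes, at 0.75 and 0.59 in sgBAP1 cells. The other IRF1 probe sets gave -0.07, -0.20 and 0.01 for the same difference, and leaving out any 1 array raised the adjusted p to between 0.0631 and 0.143 at differences of -0.78 to -0.68.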

How the results depend on the processing

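Of 1792 alternative values of 90 called changes, 1578 kept their direction and side of the threshold, 214 lost the call and 0 changed sign; 16 called changes lost the call without some array. Genes called higher in sgBAP1, IR and sgBAP1 + IR against control, then IR in sgBAP1 cells and the guide in irradiated cells, were 7, 22, 29, 24 and 7. At a fold over 2 they were 2, 13, 19, 14 and 2. Without a fold limit the guide counts became 13 and 11, with 2 lower for the guide and 1 lower for IR. The methods' t-test at an unadjusted p under 0.01 gave 3, 12 and 18 against control and 4 for the guide in irradiated cells, and after adjustment 0, 0, 1, 0 and 0, since 2 arrays a group leave it few degrees of freedom. Leaving out 1 array gave 6 to 9, 21 to 22, 26 to 29, 23 to 25 and 4 to 7, with 4 reached without the first IR or second sgBAP1 + IR array. The 1 lower call of the interaction became 0 at a fold over 2, with the mean of all probe sets, and without any 1 array (0 to 0). The median change for the guide was 0.05 with the mean of all probe sets. For IR it was 0.68 without dim probe sets (39 genes) and 0.70 with the probe set of largest spread. For both it was 0.74 after further quantile normalisation, 0.69 with the mean and 0.97 with the largest spread. For IR in sgBAP1 cells it was 0.70 and 0.71 under those last-named choices for IR. Without 1 array the medians ran from 0.02 to 0.10, 0.50 to 0.56, 0.77 to 0.79, 0.57 to 0.61 and 0.13 to 0.16, and 0.06 to 0.11 for the interaction; the cause was not tested. No paired analysis was possible because no replicate number in the labels recurs between groups. The 8 dimmest genes stayed below 5 in every group, where small changes are hard to see.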

Other observations

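Outside the list, 570 measured genes had an ISRE core in a RefSeq promoter window. Of these, 18 were called higher in IR minus control (3.16%), where 2.14% of all 14425 measured genes with a window were. In sgBAP1 + IR minus control, 32 were called higher (5.61%, against 3.49%), and in sgBAP1 minus control 17 (2.98%, against 2.35%). Those called higher with IR included the RNA sensor IFIH1, the guanylate-binding protein GBP3, the peptide transporter subunit TAP1 and the peptide-trimming enzyme ERAP2, and also genes not known for interferon responses, such as ZEB2, a repressor of CDH1. These shares are descriptions, with no test.

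USP18, the protease that removes ISG15 and restrains interferon receptor signalling, was read by a probe set annotated to 5 gene symbols. Its signal was 6.17 and 6.32 in control, 6.5 and 6.2 in sgBAP1, 6.78 and 6.76 in IR, and 6.99 and 7.14 in sgBAP1 + IR arrays. The irradiated arrays lay above the unirradiated ones, with a change of 0.53 ± 0.11 for IR (adjusted p = 0.0173), 0.82 ± 0.11 for both (adjusted p = 0.00129) and 0.11 ± 0.11 for the guide, and the signal cannot be assigned to a single gene.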
